A study of Rattus norvegicus with 24 samples.

Results

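Bdnf encodes brain-derived neurotrophic factor, a secreted growth factor of the neurotrophin family, and was followed here as a single gene through all 24 libraries of the series. It is the row with Ensembl ID ENSRNOG00000047466, 1 of 32662 gene IDs in each count table. The tables carry no gene symbols and the RefSeq gene table used here (assembly GRCr8) matched 0 of the 32662 IDs, so the name of this row was taken as given and was not checked against the data. Poly-A RNA was sequenced from brain tissue of 60-day-old rats of a pair of lines bred for opposite responses to novelty. The groups were high-responder amygdala, low-responder amygdala, high-responder dorsal raphe and low-responder dorsal raphe, with 6 libraries each. The labels name no treatment and no altered gene in any group, and sex and breeding generation are not given in the sources used here. Each response is represented by a single bred line, so any contrast of the lines also carries everything else by which they differ. Whether the 6 libraries in a group stand for different rats is not stated in the labels, and the p-values therefore speak only of the spread among libraries, some of which may be technical.

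Neurons make BDNF as a precursor that is cleaved, and the mature protein acts mainly through the receptor tyrosine kinase TrkB, while the precursor binds the receptor p75NTR. Signalling through TrkB promotes neuronal survival, dendrite growth and the strengthening of synapses, and transcription of the gene rises with neuronal activity. In the amygdala, a forebrain region of emotional learning, BDNF is known for its part in the consolidation of fear memory. In the dorsal raphe, a midbrain nucleus rich in serotonin neurons, BDNF is known to support serotonin neurons and the growth of their axons.

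The gene has several alternative starts, each with its own first exon spliced to the same protein-coding exon. The single count row does not separate them, and which first exons the annotation used for counting held is not given. RefSeq lists 11 transcripts of rat Bdnf and, in the promoter table used here, 6 start-site windows of 300 bases each (250 before the listed start and 50 from it onward) on chromosome 3 of GRCr8. The last 2 of the 6 windows overlap. A pair of windows is printed to show starts that this one row may pool, because they hold the motif matches found. Capitals in the first mark the letters CGTCA, the reverse complement of the CRE half-site TGACG, and capitals in the second mark the E-box CACGTG. In rat neurons, CREB, an activity-regulated factor that binds CRE sites, is known to act upstream of an inducible Bdnf start.
Bdnf start window at chr3:116637608-116637907, plus strand, GRCr8: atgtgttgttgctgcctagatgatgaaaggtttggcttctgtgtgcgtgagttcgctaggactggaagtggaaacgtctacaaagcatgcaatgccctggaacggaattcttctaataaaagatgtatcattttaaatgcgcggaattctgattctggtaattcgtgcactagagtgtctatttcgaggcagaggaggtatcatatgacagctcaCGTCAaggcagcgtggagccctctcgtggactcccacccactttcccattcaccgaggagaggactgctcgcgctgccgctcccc
Bdnf start window at chr3:116620585-116620884, plus strand, GRCr8: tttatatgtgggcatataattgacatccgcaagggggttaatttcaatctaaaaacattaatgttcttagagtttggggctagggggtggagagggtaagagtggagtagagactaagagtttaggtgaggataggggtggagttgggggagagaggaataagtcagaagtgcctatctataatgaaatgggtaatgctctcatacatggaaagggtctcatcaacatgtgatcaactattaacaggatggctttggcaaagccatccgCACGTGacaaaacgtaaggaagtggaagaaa

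The half-site began 35 bases before the listed start in the first window, at position -35, and the E-box began at position 20 of the transcribed part in the second. Both strands were searched for TGACG, the full CRE TGACGTCA and CACGTG. Matches to the half-site include every full CRE. Of 33469 windows of 300 bases in the RefSeq table, 21.2% held the half-site, 1.83% the full CRE and 6.42% the E-box. None of the 6 Bdnf windows held the full CRE, the other 5 held no half-site and the other 5 held no E-box. These matches describe the letters only. Gene counts do not show which start was used in which library, and the counts were made on build rn6, so no window was tied to a value below.

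Library totals ranged from 9232983 to 20194601 counts. Bdnf had 120 to 487 counts per library and 6301 over all 24, so it was well above 0 in every library. Levels are given as CPM, the count divided by the library total and put on one scale for all libraries, with totals first adjusted by TMM, a method that allows for differences in RNA composition. CPM values are not corrected for transcript length. Counting alone gives a relative error of 4.53% at 487 counts and 9.13% at 120 counts.

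**Figure D1:**
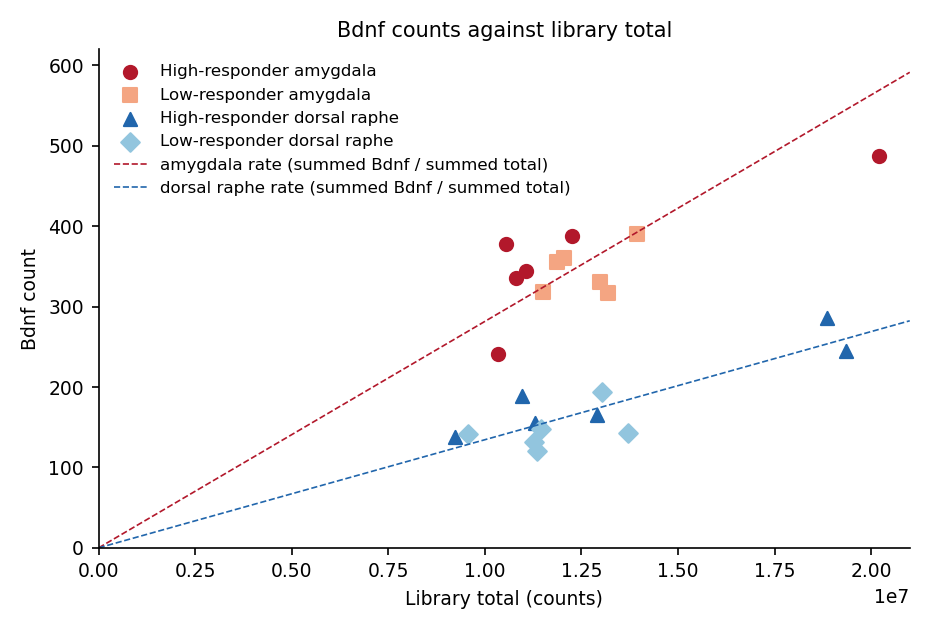
Bdnf count (vertical) against library total in counts (horizontal) for the 24 libraries, with symbols by group; dashed lines give the summed Bdnf count over the summed total of each region. The amygdala libraries lie above the dorsal raphe libraries at like totals, and the highest Bdnf count, 487, comes from the library with the largest total.

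Bdnf was higher in amygdala than in dorsal raphe, over both lines and in each, and passed the threshold (an adjusted p under 0.05) in no other comparison made with edgeR on all libraries of the groups compared. The level averaged 28.6 ± 3.95 CPM in amygdala and 13.5 ± 2.21 CPM in dorsal raphe (SD, n = 12 each). In amygdala the lowest library stood at 23.1, the median at 29.2 and the highest at 36.7 CPM, against a lowest of 10.3, a median of 13.0 and a highest of 17.0 CPM in dorsal raphe. The regions did not overlap, and the lowest amygdala library was 1.36 times the highest dorsal raphe library. The log2 fold change was 1.08 (SE 0.090, edgeR adjusted p = 1.27e-10), a 2.12-fold difference with a 95% interval of 1.86 to 2.41. As background, 65.8% of 14977 genes tested passed the same threshold between regions, and 22.3% showed no overlap between the 12 libraries of one region and the 12 of the other. A call higher in amygdala with a log2 fold change over 1, as Bdnf had, was made for 8.41% of genes. In tissue RNA, fewer Bdnf-expressing cells and less Bdnf RNA per cell cannot be told apart.

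The region difference was present in each line. In high-responder rats Bdnf averaged 29.6 ± 5.06 CPM in amygdala and 14.3 ± 1.96 CPM in dorsal raphe (SD, n = 6 each), a log2 difference of 1.05 with an SE of 0.13 (edgeR adjusted p = 1.91e-07). In low-responder rats it averaged 27.6 ± 2.54 CPM in amygdala and 12.7 ± 2.32 CPM in dorsal raphe (SD, n = 6 each), a log2 difference of 1.12 with an SE of 0.13 (edgeR adjusted p = 6.12e-08). In both lines all 6 amygdala libraries lay above all 6 dorsal raphe libraries, as the plot of levels by library shows. Such complete separation was found for 32.2% of genes in high responders and 32.5% in low responders, and the adjusted threshold was passed by 51.5% and 54.5%. A two-sided exact permutation test of the log2 CPM of Bdnf alone gave p = 0.00216 in each line (n = 6 per region), the smallest that 924 splits allow.

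**Figure D2:**
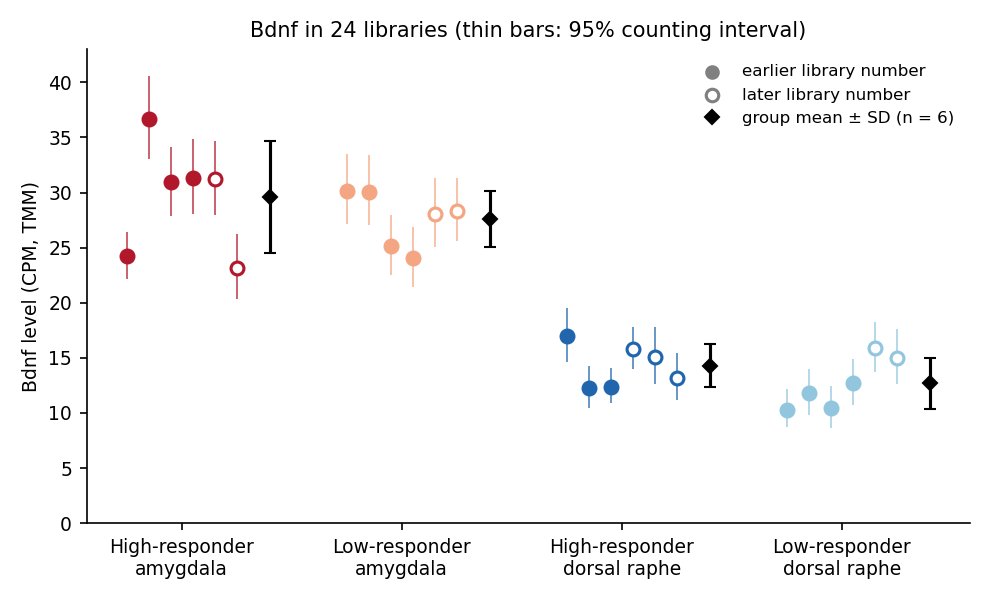
Bdnf level in CPM (vertical) in each library of the 4 groups, in order of the number in the sample title within a group. Thin bars are 95% counting intervals, and the black diamond is the group mean ± SD (n = 6). Open symbols are libraries with later library numbers. The 12 amygdala libraries lie between 23.1 and 36.7 CPM and the 12 dorsal raphe libraries between 10.3 and 17.0 CPM, while the lines overlap within each region.

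Between the lines, Bdnf did not pass the threshold in either region. In amygdala the lowest, median and highest libraries were 23.1, 31.1 and 36.7 CPM in high-responder rats, against 24.03, 28.2 and 30.2 CPM in low-responder rats. The low-responder range lay wholly inside the high-responder range, and the high-responder library was higher in 25 of the 36 possible pairings of 1 library from each line. The log2 fold change was 0.094 (SE 0.11, edgeR adjusted p = 0.877), with a 95% interval of 0.905 to 1.26 for the fold. That interval holds no difference (a fold of 1) and differences in either direction, and all of these are compatible with the data. Only 0.021% of 14265 genes passed in this comparison, and the two-sided exact permutation test of Bdnf alone gave p = 0.463 (n = 6 per line).

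In dorsal raphe the values were 12.2, 14.1 and 17.0 CPM (lowest, median and highest) in high-responder rats, against 10.3, 12.2 and 15.9 CPM in low-responder rats. The lines overlapped, with the high-responder library higher in 26 of the 36 possible pairings of 1 library from each line. The log2 fold change was 0.16 (SE 0.14, edgeR adjusted p = 0.999), and the 95% interval for the fold ran from 0.910 to 1.37. In this comparison 0.0625% of 14390 genes passed, and the exact permutation test of Bdnf alone gave a two-sided p of 0.201 (n = 6 per line).

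Averaged over both regions, the line difference was 0.13 in log2 terms with an SE of 0.089 (edgeR adjusted p = 0.745), a fold of 1.09 with a 95% interval of 0.963 to 1.24, where 0.26% of genes passed. The amygdala line difference less the dorsal raphe one was -0.077 (SE 0.18, edgeR adjusted p = 0.9999, 95% interval -0.44 to 0.29), where 0.00668% of genes passed. Bdnf passed in neither test, and the interval of each includes no difference (a fold of 1, or 0 on the log2 scale).

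**Figure D3:**
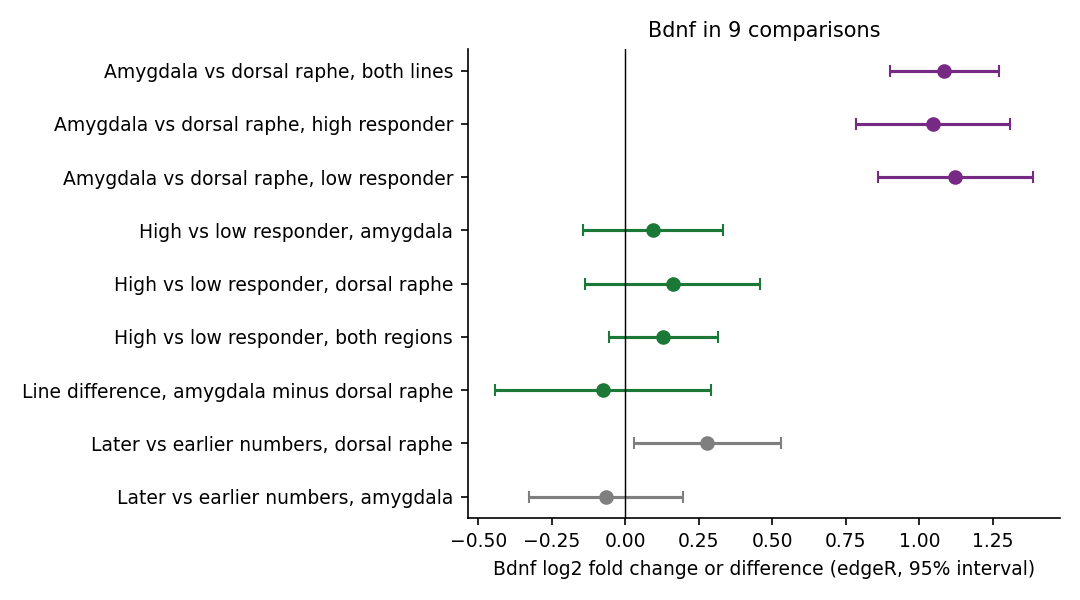
Log2 fold change or difference of Bdnf (horizontal, edgeR) with its 95% interval in 9 comparisons (rows), each as the first-named group over the second. The 3 region comparisons lie at 1.05 to 1.12, and the intervals of all 4 comparisons that involve the lines include 0. For later over earlier numbers, the interval in dorsal raphe (0.029 to 0.53, not adjusted for the number of genes) excludes 0 and that in amygdala includes it.

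The 4 groups ranked, from high to low mean, as high-responder amygdala, low-responder amygdala, high-responder dorsal raphe and low-responder dorsal raphe. Within each region the neighbours in this order did not differ beyond their spread. The lowest low-responder amygdala library, at 24.03 CPM, lay above the highest high-responder dorsal raphe library, at 17.0 CPM, so the step between the second and the third group was the only one with no overlap.

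The size of the region difference can be set beside that of the other genes. Bdnf had a larger log2 fold change towards amygdala than 92.4% of the 14977 genes tested, and 15.5% of them had a larger difference in either direction. The median size of the region difference over all genes tested was 0.36 on the log2 scale. For the line, Bdnf had a larger log2 fold change towards high responders than 75.9% of genes in amygdala and 89.0% in dorsal raphe, and 49.5% and 25.1% of genes had a larger difference in either direction. The median size of the line difference over all genes tested was 0.092 in amygdala and 0.085 in dorsal raphe on the log2 scale.

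**Figure D4:**
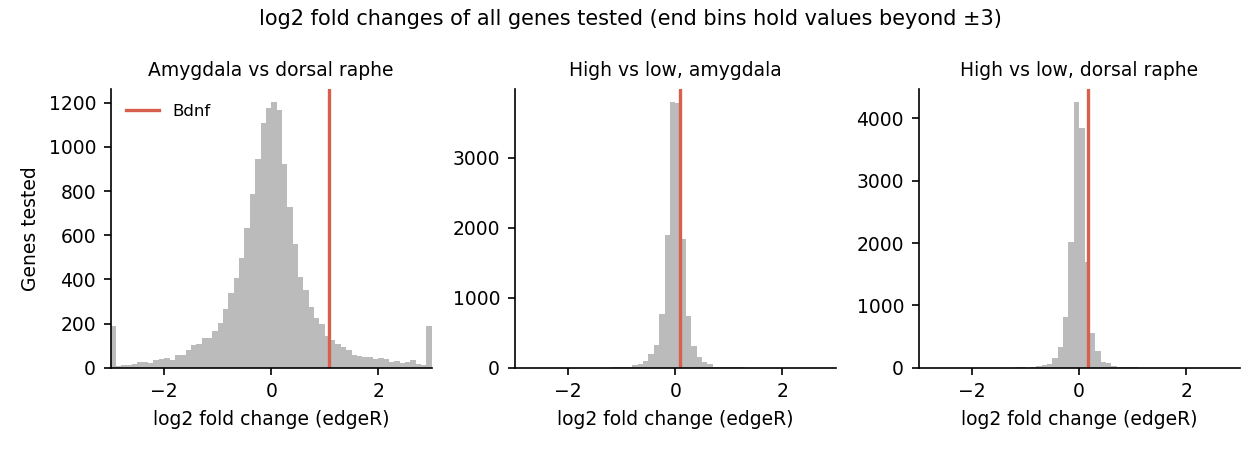
Number of genes tested (vertical) by log2 fold change (horizontal, bins of 0.1, values beyond 3 in either direction placed in the end bins) for amygdala over dorsal raphe and for high over low responders in each region, with Bdnf as a vertical line. Bdnf lies at 1.08 in the region comparison, above 92.4% of genes, and at 0.094 and 0.16 in the line comparisons of amygdala and dorsal raphe, above 75.9% and 89.0% of genes in much narrower distributions.

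Among the libraries of one group Bdnf varied more than counting alone gives. The coefficient of variation of its CPM was 17.1% in high-responder amygdala, 9.21% in low-responder amygdala, 13.7% in high-responder dorsal raphe and 18.3% in low-responder dorsal raphe, where counting error would give 5.38%, 5.40%, 7.402% and 8.32%. Each group pools the earlier and later library numbers described below. Within the 4 earlier libraries of low-responder dorsal raphe it was 10.2%, where counting error would give 8.61%. Earlier libraries gave 16.6% in high-responder amygdala (n = 4), 11.8% in low-responder amygdala (n = 4) and 19.4% in high-responder dorsal raphe (n = 3). Counting error there would give 5.18%, 5.42% and 7.28%. The spread of high-responder amygdala came from both ends. Library 2 stood at 36.7 CPM (95% counting interval 33.0 to 40.5), and libraries 1 and 6 stood at 24.2 (22.1 to 26.5) and 23.1 CPM (20.3 to 26.2). The interval of library 2, the highest of the group, did not overlap those of libraries 1 and 6, the lowest, which overlapped each other. The difference between library 2 and these was larger than counting error, which is the only error the intervals cover. The biological coefficient of variation that edgeR estimated for Bdnf was 14.7% over all 24 libraries, against a median of 15.6% over all genes tested, and 45.1% of genes had a lower one.

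The count tables carry library numbers in their headers, and these part the dorsal raphe libraries. Single libraries are named here by the number in their sample title instead. Within each group the numbers run consecutively up to a break, and libraries after the first break are called later here. All low-responder numbers come before all high-responder numbers, so an order effect across all libraries and the line cannot be told apart. The 5 later dorsal raphe libraries stood at 15.8, 15.1 and 13.2 CPM in high-responder rats and at 15.9 and 15.0 CPM in low-responder rats. The 7 earlier ones stood at 17.0, 12.2 and 12.4 CPM in high-responder rats and at 10.3, 11.8, 10.4 and 12.7 CPM in low-responder rats. Later libraries were thus higher than 6 of the 7 earlier ones, the exception being high-responder library 1, which held the highest dorsal raphe value.

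With the line in the fit, the log2 fold change of later over earlier dorsal raphe libraries was 0.28 (SE 0.12, 95% interval 0.029 to 0.53). The interval excludes 0, but it is not adjusted for the number of genes tested. The edgeR p was 0.031 before and 0.0617 after adjustment, and Bdnf did not pass, where 48.1% of 14390 genes did. An unadjusted p under 0.05 was found for 56.0% of these genes. A larger difference in either direction was found for 47.1%, and the median size over all genes tested was 0.26 on the log2 scale. The mean was 15.0 ± 1.07 CPM in later (SD, n = 5) and 12.4 ± 2.22 CPM in earlier libraries (SD, n = 7). Bdnf passed in 1 of 8 refits under other settings, with limma voom (adjusted p = 0.0425). With 1 library left out it passed in 2 of 12 edgeR refits. These left out high-responder library 1 (log2 fold change 0.38, adjusted p = 0.00905) or high-responder library 6 (0.33, adjusted p = 0.0291). The highest edgeR adjusted p was 0.141 among other settings (library size only) and 0.233 with 1 library left out (low-responder library 5). What else separates later from earlier libraries is not given in the sources used here, and its part in the level of Bdnf was not tested.

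In amygdala the later libraries stood at 31.2 and 23.1 CPM in high-responder rats and at 28.0 and 28.3 CPM in low-responder rats. The earlier ones stood at 24.2, 36.7, 30.9 and 31.3 CPM in high-responder rats and at 30.2, 30.1, 25.1 and 24.03 CPM in low-responder rats. Later and earlier values were interleaved, and later libraries differed from earlier ones by -0.066 in log2 terms, with an SE of 0.12 (edgeR adjusted p = 0.973). None of the 14265 genes passed with edgeR (0 called, 545 at an unadjusted p under 0.05), and DESeq2 called 2.

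Within earlier and within later libraries the region difference of Bdnf kept its direction and its call. It was 0.87 on the log2 scale in later libraries (edgeR adjusted p = 0.000251, 4 amygdala and 5 dorsal raphe libraries) and 1.22 in earlier ones (edgeR adjusted p = 8.35e-08, 8 amygdala and 7 dorsal raphe libraries). The line difference did not pass in either set, and its sign turned. In later libraries it was -0.050 in amygdala (SE 0.15, edgeR adjusted p = 0.949, 2 libraries of each line). In later dorsal raphe libraries it was -0.080 (SE 0.17, edgeR adjusted p = 0.9995, 3 high-responder and 2 low-responder libraries). In earlier libraries it was 0.16 in amygdala (SE 0.14, edgeR adjusted p = 0.984, 4 libraries of each line). In earlier dorsal raphe libraries it was 0.29 (SE 0.15, edgeR adjusted p = 0.6251, 3 high-responder and 4 low-responder libraries). Both later values were smaller than their SEs, so the turn of sign was not resolved. With a term for later libraries in the fit of the 12 libraries of each region, the line difference was 0.091 in amygdala and 0.13 in dorsal raphe, neither past the threshold.

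**Figure D5:**
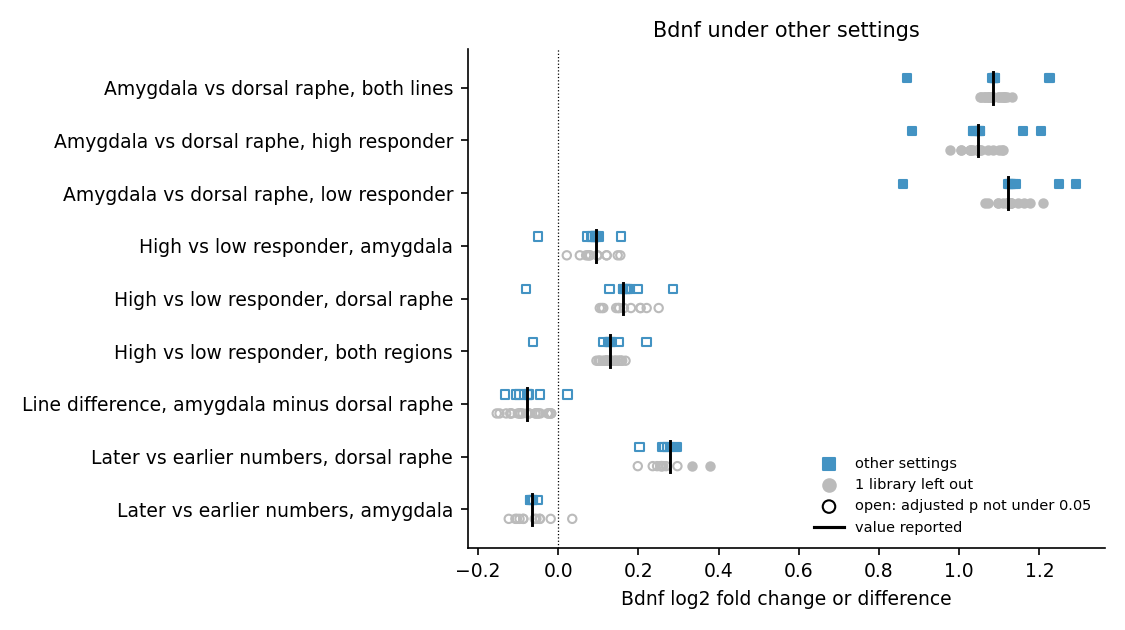
Log2 fold change or difference of Bdnf (horizontal) in 9 comparisons (rows) under other settings (squares) and with 1 library left out (circles), filled where the adjusted p of that fit (the exact p of a permutation test) was under 0.05, with the value reported as a black bar. The region values range from 0.86 to 1.29 and are all filled, those that involve the lines are all open, and the later over earlier values in dorsal raphe are filled in 3 fits.

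Genes whose pattern was most like that of Bdnf were sought among 14242 other genes with a mean of at least 1 CPM, as a description, since all values come from the same 24 libraries. By Pearson correlation of log2 CPM over the 24 libraries, which is set mostly by region, the closest were ENSRNOG00000019321 (r = 0.970) and ENSRNOG00000018184 (r = 0.967), where the median gene had r = -0.0065 and 26.8% of genes had r above 0.5. ENSRNOG00000019321 averaged 309 ± 83.1 and 348 ± 44.0 CPM in amygdala of high and low responders, and 20.8 ± 7.01 and 12.7 ± 9.35 CPM in their dorsal raphe (SD, n = 6 for each mean), a far larger region difference than that of Bdnf. ENSRNOG00000018184 averaged 191 ± 19.9 and 187 ± 13.2 CPM in amygdala of high and low responders, and 122 ± 6.87 and 107 ± 6.21 CPM in their dorsal raphe (SD, n = 6 for each mean). Its region difference, 0.72 on the log2 scale, was smaller than the 1.08 of Bdnf, and a high correlation therefore does not mean an equal fold.

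After the mean of each of the 4 groups was taken off, which leaves only the variation within groups, the closest were ENSRNOG00000010816 (r = 0.775) and ENSRNOG00000038347 (r = 0.771) over the same 24 libraries, and 10.3% of genes had r above 0.5. Such variation includes that between later and earlier libraries, by which 48.1% of 14390 genes passed in dorsal raphe. The part of that split in these correlations was not tested. ENSRNOG00000010816 averaged 11.7 ± 2.70 and 11.7 ± 1.11 CPM in amygdala of high and low responders, against 13.3 ± 2.98 and 11.0 ± 3.44 CPM in their dorsal raphe (SD, n = 6 for each mean). Its values moved with those of Bdnf among the libraries of a group, while its own log2 fold change between regions was -0.051. ENSRNOG00000038347 had a region difference of 0.45 on the log2 scale. The files do not pair these IDs with names.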

How the data were processed

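RNA was isolated with a miRNeasy kit from Qiagen and libraries were built from poly-A RNA, per the labels' protocols. The submitters' processing notes name Trim Galore, STAR and the genome build rn6. Tool versions, the read counter, annotation, strandedness and how multi-mapping reads were handled are not given in the sources used here. Files as deposited by the authors hold whole-number raw counts, 1 table per library, with 0 lines that name no gene. An antisense or overlapping partner of Bdnf could not be told apart from it; the RefSeq table lists 0 other genes that overlap Bdnf.

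All genes were fitted together in R 4.3.3 with edgeR 4.0.16 (filterByExpr, TMM, glmQLFit, glmQLFTest), and a Benjamini-Hochberg adjusted p under 0.05 was called. The SE is the absolute log2 fold change over the square root of F. Line comparisons within a region and library number comparisons used the 12 libraries of that region, and the others used all 24 as 4 groups. Log2 CPM had a prior count of 2. Alternatives were RLE, library size only, 2 other filters (none beyond 1 count, or 6 libraries with at least 1 CPM), DESeq2 (version 1.42.0), voom in limma (version 3.58.1), library number terms and subsets, a replicate block, other sample sets and leaving out each library. Fits without the 100 most counted genes were chosen after seeing the data. The scripts were tested on simulated data. The gene, the rule for named genes (the 2 most correlated with Bdnf by each of 2 measures) and the lists were chosen with earlier results of these data known. A neurotrophin pathway list and cell type markers could not be applied, because no ID had a symbol, so neither pathway members nor the labelled tissues were checked. Within groups, the closest of 60 library pairs differed with a chi-square of 3.46 per degree of freedom, so no library was treated as a duplicate. Intervals of single libraries cover counting error only, and no source used here names molecular identifiers; intervals of fold changes and differences come from the edgeR fit and cover the spread between libraries.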

Additional observations from a re-analysis of the deposited data

Results flagged for a closer look

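High-responder amygdala library 1 had a total of 20194601 counts, far from the other 5 of its group, whose highest was 12243679. It was the only one found among 12 sets of 6 values examined (the Bdnf count, the Bdnf CPM and the total in each of 4 groups), where chance flags about 1 in 20. Its Bdnf level, 24.2 CPM, was the second lowest of its group. No Bdnf count or CPM lay that far from the others of its group. The nearest to a flag was the Bdnf count of low-responder dorsal raphe library 5, 194 against a next highest of 148, just short of the limit used. The CPM of that library, 15.9, was not near the limit.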

How the results depend on the processing

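Of 95 refits of the 9 Bdnf comparisons under other settings, 90 kept the direction and the side of the threshold, and of 168 refits without 1 library 165 did. The region difference passed in all refits, at 0.87 to 1.23 over both lines, 0.88 to 1.20 in high responders and 0.86 to 1.29 in low responders, the ends coming from the fits of later or earlier libraries alone or with a term for them. In later libraries alone the sign turned for the line difference in amygdala (-0.050, SE 0.15), in dorsal raphe (-0.080, SE 0.17) and over both regions (-0.064, SE 0.12). It also turned for the difference between regions of the line difference (0.023, SE 0.23). Each of these values was smaller than its SE, none passed the threshold before or after, and the cause was not tested. Later over earlier dorsal raphe libraries passed with limma voom (0.29). Leaving out 1 library gave 1.05 to 1.13 for the region difference over both lines, 0.98 to 1.11 in high responders, 1.06 to 1.21 in low responders, 0.021 to 0.15 and 0.10 to 0.25 for the line in amygdala and dorsal raphe, 0.095 to 0.17 over both regions, -0.15 to -0.018 for the difference of line differences, 0.20 to 0.38 for later over earlier in dorsal raphe (0.38 without high-responder library 1 and 0.33 without high-responder library 6, both past the threshold), and -0.12 to 0.035 in amygdala, where the sign turned only without high-responder library 6. Equal title numbers did not mark shared deviations between regions (1 of 6 pairs with a correlation over 0.1 in each line). Between lines it was mixed, with 2 of 6 pairs over 0.1 in amygdala and 3 of 6 in dorsal raphe. In dorsal raphe these correlations ran from -0.56 to 0.69, with a mean of 0.13 for equal and -0.015 for unequal numbers. With a replicate block Bdnf differed by 1.09 between regions, 0.082 and 0.17 between lines in amygdala and dorsal raphe, 0.13 over both regions, and -0.097 for the difference of line differences, with no call changed. Counts of genes called between lines depended on the tool: DESeq2 called 82 in amygdala and 39 in dorsal raphe, against 3 and 9 with edgeR, with 1 to 27 and 3 to 12 when 1 library was left out, and over both regions 163 against 39, with 29 to 75 when 1 library was left out. Later libraries alone gave 61 in amygdala (from only 2 libraries of each line), 0 in dorsal raphe and 1 over both regions. Earlier ones alone gave 0, 16 and 17 in the same order. Other counts over 1.5 times away were 1 in amygdala with limma voom, RLE, library size only or no filter, and 6 with all 24 libraries; 2 in dorsal raphe with limma voom and 5 with the replicate block; and over both regions 93 with a term for later libraries and 21 with the block. With 120 to 487 counts per library and 6 libraries a group, line differences inside the intervals given are compatible with the data, as is none.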
